A study of Mus musculus with 2 samples.

Results

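Type 2 cytokine genes and genes known for group 2 innate lymphoid cells (ILC2) were examined in a map of the transcription factor TCF-1 in mouse lymphoid tissue inducer (LTi) cells. The 10 genes were Il4, Il13, Rad50 and Il5, which form 1 locus on chromosome 11, and Ptgdr2, Hpgds, Arg1, Areg, Klrg1 and Il17rb. Islands, the stretches of clustered reads that the authors called, were taken when they overlapped the RefSeq body of a gene, or 50 kb on either side of it, by at least 1 bp. This gave 25 of the 19531 islands in the table, spread over 6 of the 7 loci.

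The series holds 2 libraries of 500 sorted cells each, 1 library per group, so no difference between groups has a replicate check. One library came from Tcf7fl/fl-VavCre cells of the small intestine lamina propria, in which Vav-driven Cre deletes Tcf7 in blood-forming cells, and the other from Tcf7+/+ cells of Peyer's patches. Both were on the C57BL/6 strain. Both were sorted as lineage-negative cells with CD127 and CCR6 on the surface and without KLRG1, NK1.1 and NKp46. Both were profiled by ChIC-seq, in which an antibody, here against TCF-1, brings micrococcal nuclease to chromatin and the released DNA is sequenced. Genotype and tissue differed together and cannot be told apart.

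Reads are given for a peak library and a control library (peak reads and control reads), because the table's header ties neither column to a sample and no direction between the genotypes can be read. The islands held 483771 peak-library reads and 189291 control-library reads, but the depth of the libraries beyond them is unknown. A fold is the peak-library count over the control-library count times the scaling factor of 1.997 that the authors used. For the 1112 islands with 0 control reads, the authors' fold puts a small value in place of 0. The fold and the false discovery rate (FDR) of an island are the authors' values. Pooled folds and all intervals were computed here as exact 95% intervals, and they cover counting error only. Islands are called where peak-library reads cluster, and the 25 had 8 or more peak reads but 0 to 19 control reads. This choice raises folds by construction, so neither a fold nor an interval above 1 is evidence by itself. Of the nuclear islands, 19513 had under 200 peak reads, and pooled they had a fold of 1.62 (1.61 to 1.63). The other 18 islands, 3 of them mitochondrial, held 37.0% of all control-library reads, and with them the pooled fold of all islands was 1.28.

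Interleukins 4, 5 and 13 are the signature cytokines of T helper 2 cells and of ILC2, which act in defence against worms and in allergy. LTi cells belong to group 3 and are known for lymphotoxin and interleukin-22 instead. The cytokine genes stand in a conserved cluster. Within it, Rad50, a DNA repair gene, carries at its Il13-facing end the locus control region known from T helper 2 cells. In mouse ILC development TCF-1 is known to be needed for ILC2 and to act upstream of Gata3. These data measure nuclease-released DNA, not expression of any of these genes.

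The promoters bear on the cytokine genes in a simple way, since the motif of TCF factors stood in the promoters of Il13 and Il5 while no island covered either. RefSeq promoters (GRCm38.p6, the mm10 build, 250 bases before to 50 after a gene start) were found for 7 of the 10 members, as 8 windows, since Il4 has more than 1. The motif was searched as CTTTGAT and CTTTGTT on both strands. It was in 3066 of 32851 promoters of the table (9.33%), in 5.87% of the 9359 promoters under an island and in 10.7% of the others. Shown are both cytokine promoters that held it and the promoter of Hpgds, which did not and was the one of these 8 windows under an island. Promoters of Rad50, Arg1 and Klrg1 were not analysed here, and an island across an end of Rad50 is described with its locus. Capitals mark the motif, here on the reverse strand in both cases.
Il13, chr11:53634653-53634952, minus strand: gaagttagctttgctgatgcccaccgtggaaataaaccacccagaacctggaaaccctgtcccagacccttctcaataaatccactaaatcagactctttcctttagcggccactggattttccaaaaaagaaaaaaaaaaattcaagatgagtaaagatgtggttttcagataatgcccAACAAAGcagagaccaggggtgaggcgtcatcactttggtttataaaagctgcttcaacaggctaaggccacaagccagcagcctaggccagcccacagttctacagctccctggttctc
Il5, chr11:53720544-53720843, plus strand: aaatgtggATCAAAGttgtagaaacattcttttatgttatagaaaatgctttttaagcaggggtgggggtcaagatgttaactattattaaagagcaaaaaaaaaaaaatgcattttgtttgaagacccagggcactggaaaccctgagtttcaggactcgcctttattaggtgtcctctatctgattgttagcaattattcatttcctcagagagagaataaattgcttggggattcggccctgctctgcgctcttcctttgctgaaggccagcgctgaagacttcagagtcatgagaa
Hpgds, chr6:65144681-65144980, minus strand: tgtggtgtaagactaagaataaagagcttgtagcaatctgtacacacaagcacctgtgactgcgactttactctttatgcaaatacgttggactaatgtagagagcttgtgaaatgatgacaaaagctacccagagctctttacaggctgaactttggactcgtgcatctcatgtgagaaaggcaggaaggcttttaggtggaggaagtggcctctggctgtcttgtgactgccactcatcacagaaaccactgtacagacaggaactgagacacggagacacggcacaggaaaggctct
In Il13 the motif began 70 bases before the start, and in Il5 it began 242 bases before it. The promoters of Il4, Il17rb, Ptgdr2 and Areg held neither an island nor these letters. A match is a description of letters and not a measured site.

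At the type 2 cytokine locus the islands lay around the cytokine genes and not in them. No island touched Il4, Il13 or Il5. A stretch of 137.2 kb without an island held all of Il4 and Il13 and all of Rad50 but 319 bp at its Il5-facing end. Among 19507 gaps between neighbouring nuclear islands, 14.8% were at least that long, and the median gap was 21.8 kb. These values count gaps and not bases. A longer gap covers more of the genome, so the stretch is not shown to be unusual. The Il13-facing end of Rad50, where the locus control region is known to lie, was 57482 bp from the island at the other end of that gene.

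**Figure D1:**
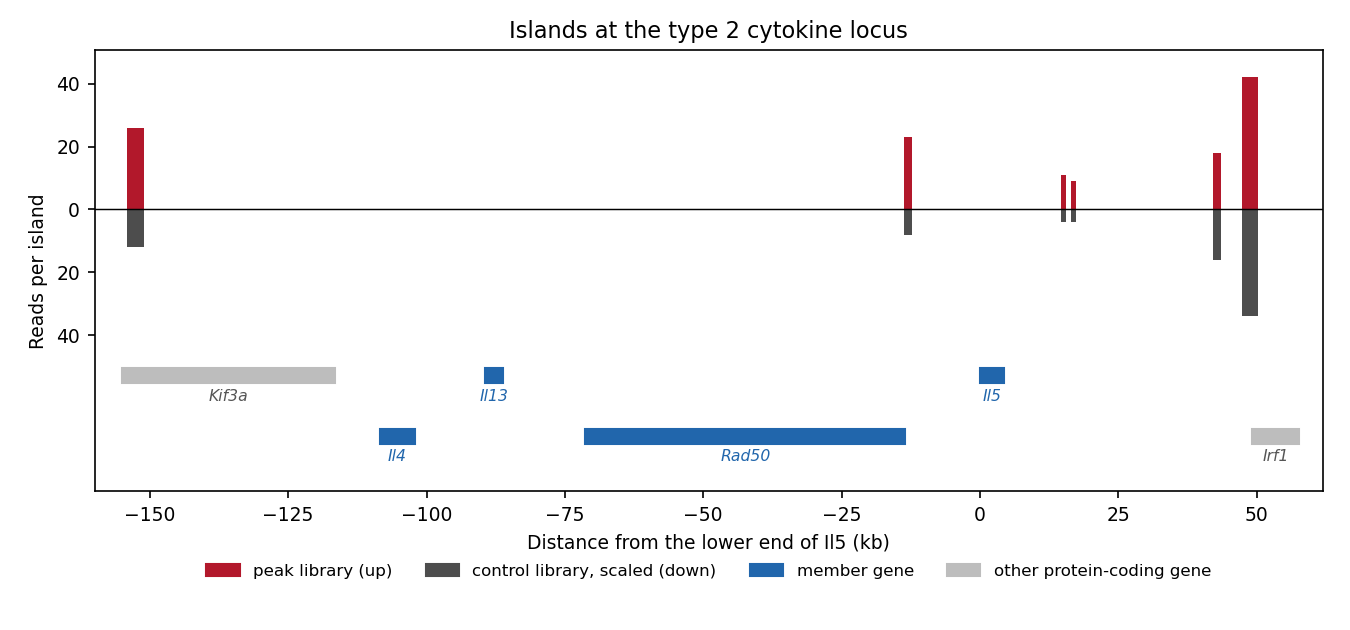
Reads of the 6 islands at the type 2 cytokine locus by distance from the lower end of Il5 in kb, with peak-library reads drawn upwards and scaled control-library reads downwards, above the protein-coding genes. Bars are as wide as the islands, with a minimum width for visibility; the space over Il4, Il13 and nearly all of Rad50 is empty, and the tallest bar, of 42 reads, stands at Irf1.

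The island with the highest fold at this locus lay across the Il5-facing end of Rad50, at chr11:53707001-53708600. It had 23 peak-library reads against 4 control-library reads, a fold of 2.88 (0.984 to 11.5) at an FDR of 1.72e-05. A pair of short islands lay beyond Il5 on the side of Irf1, in sequence that no protein-coding gene covers. The nearer, 10298 bp from Il5, had 11 peak and 2 control reads, a fold of 2.75 (0.601 to 25.6). The farther, 12098 bp from Il5, had 9 peak and 2 control reads, a fold of 2.25 (0.466 to 21.4). All 3 passed an FDR of 0.05, as did 62.5% of all islands, yet each interval included 1. Their control counts were 4 or fewer.

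The other 3 islands of the locus were nearer to neighbouring genes than to a cytokine gene. At Kif3a, which encodes a kinesin motor subunit, an island over the promoter had 26 peak and 6 control reads, a fold of 2.17 (0.874 to 6.45). At Irf1, an interferon regulatory factor gene, an island over the promoter had 42 peak and 17 control reads, a fold of 1.24 (0.689 to 2.32) that did not pass the FDR. A further island 5614 bp from Irf1 had 18 peak and 8 control reads, a fold of 1.13 (0.466 to 2.99). Pooled over all 6 islands, the locus had 129 peak and 39 control reads, a fold of 1.66 (1.15 to 2.43). The 1.62 of nuclear islands of under 200 peak reads lay in that interval. With 10 kb on either side, or gene bodies alone, the locus kept only the island across the end of Rad50, with its fold of 2.88 (0.984 to 11.5).

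By gene, Il13 had no island within 50 kb and Il4 had only the one at Kif3a. Rad50 had 3, with 43 peak and 8 control reads, a pooled fold of 2.69 (1.25 to 6.63). Il5 had 5, among them the same 3, with 103 peak and 33 control reads, a pooled fold of 1.56 (1.05 to 2.39). The windows of these genes overlap, so their values are not independent.

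Prostaglandin D2 is made by the enzyme that Hpgds encodes and is sensed by the receptor CRTH2, the product of Ptgdr2, by which ILC2 and T helper 2 cells are recognised. Both islands of the Hpgds window overlapped the gene, the second reaching past its higher end. The island at chr6:65140201-65142000 inside the gene had 24 peak and 6 control reads, a fold of 2.00 (0.798 to 5.99) at an FDR of 0.00175. The island over the promoter printed above, at chr6:65144601-65145200, had 9 peak and 4 control reads, a fold of 1.13 (0.314 to 5.01), and it did not pass the FDR. Together they gave 33 peak and 10 control reads, a pooled fold of 1.65 (0.796 to 3.76). Beyond Hpgds the next islands stood 5907893 bp away on the lower side and 341020 bp away on the higher side.

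Ptgdr2 had the most islands of the 7 loci, 7 within 50 kb, yet none touched the gene. Pooled, they had 96 peak and 24 control reads, a fold of 2.00 (1.27 to 3.28). The island with the second-highest fold among the 25, at chr19:10907401-10909600, lay in Prpf19, a splicing factor gene, 14919 bp from Ptgdr2. It had 17 peak and 1 control reads, a fold of 8.51 (1.33 to 356) at an FDR of 1.12e-10. The island with the highest fold, at chr19:10980001-10980400 in Ms4a15, had 8 peak and 0 control reads. Its deposited fold of 16.0 rests on the value put in place of 0. Set against a floor of 3 control reads it was 1.34-fold higher in the peak library. The lower bound of the exact interval, in which the 8 peak reads count with their own error, was 0.855.

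The remaining 5 islands around Ptgdr2 had 12 to 17 peak-library reads against 4 to 6 control-library reads. Folds of 1.75 were found both for the island in Zp1, 8119 bp from Ptgdr2 on its lower side, and for the island over the promoter of Ccdc86, 6890 bp from it on its higher side. Each of these had 14 peak and 4 control reads and passed the FDR at 0.0295. Islands over the promoters of Tmem109 (17 peak and 6 control reads) and Prpf19 (14 peak and 5 control reads), and 1 island near Ms4a10 (12 peak and 4 control reads), did not pass.

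Arg1 encodes arginase 1, an enzyme of arginine breakdown that ILC2 and some macrophages are known to make. No island touched the gene, but all 4 islands of its window lay beyond its higher end and had no other protein-coding gene nearer. The first 3 overlapped the long non-coding RNA genes Gm40616, Gm36228 or both. The closest, 131 bp from the gene, had 16 peak and 7 control reads, a fold of 1.14 (0.446 to 3.29). The next, 1931 bp from it, had 10 peak and 1 control reads, a fold of 5.01 (0.712 to 217).

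Farther from Arg1, at chr10:24953801-24957000, an island 26331 bp from the gene had 31 peak and 6 control reads, a fold of 2.59 (1.06 to 7.59) at an FDR of 6.49e-06. The last, 34131 bp away, again had 10 peak and 1 control reads. The pooled fold of the locus, from 67 peak and 15 control reads, was 2.24 (1.26 to 4.22), the highest of the 6 loci with islands. Its interval overlapped those of the other 5 loci and included 1.62.

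Areg, which encodes amphiregulin, a growth factor of the epidermal growth factor family that ILC2 release in tissue repair, had no island in its window. Its nearest islands were 206999 bp away on the lower side and 812769 bp away on the higher side, an island-free stretch of 1028.6 kb. Of all gaps between neighbouring islands, 2.66% by number were at least as long, which again is not a share of the genome. The table lists no reads outside islands, so the count of reads at Areg is unknown.

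Klrg1 encodes a lectin-like inhibitory receptor of mature ILC2 and effector lymphocytes, and its product was absent from the sorted cells by the gate. No island touched Klrg1, and 4 lay between 8768 and 24968 bp beyond its higher end, towards and at M6pr, the gene of a mannose 6-phosphate receptor. The first 2 overlapped Gm6637, a transcribed pseudogene in RefSeq. The island at chr6:122291601-122294800, the nearest to Klrg1, had 43 peak and 14 control reads, a fold of 1.54 (0.825 to 3.04). The one with the highest fold, at chr6:122301001-122303000, was nearer to M6pr and had 21 peak and 3 control reads, a fold of 3.51 (1.05 to 18.4).

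Of the other islands near Klrg1, a short one had 10 peak and 3 control reads, a fold of 1.67 (0.430 to 9.44). The island across the end of M6pr had the most peak-library reads of the 25, 46 against 19, and a fold of 1.21 (0.697 to 2.19). Neither of these passed the FDR. The 4 islands pooled to 120 peak and 39 control reads, a fold of 1.54 (1.07 to 2.27). Scaled to equal totals of nuclear islands of under 200 peak reads, that fold was 0.951 (0.657 to 1.40). This scaling sets the pooled fold of all those nuclear islands to 1. On its lower side Klrg1 had no island for 939996 bp.

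Il17rb encodes the chain of the interleukin-25 receptor that binds the cytokine, a defining receptor of ILC2. Its window held 2 islands, both at other genes and neither past the FDR. The island over the promoter of Selenok, a selenoprotein gene, had 24 peak and 12 control reads, a fold of 1.00 (0.482 to 2.20). The island at Actr8, a chromatin remodeller gene, had 13 peak and 8 control reads, a fold of 0.814 (0.313 to 2.26), the sole fold below 1 among the 25. When the totals of both columns were set equal, 7 of the 25 folds were below 1, and with totals set equal over nuclear islands of under 200 peak reads, 11 were. Each of these scalings sets the pooled fold of the islands it uses to 1, so folds below 1 follow by construction. With the authors' scaling, the Il17rb window held few reads. Pooled, 37 peak and 20 control reads gave 0.926 (0.524 to 1.68), the lowest of the 6 loci.

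**Figure D2:**
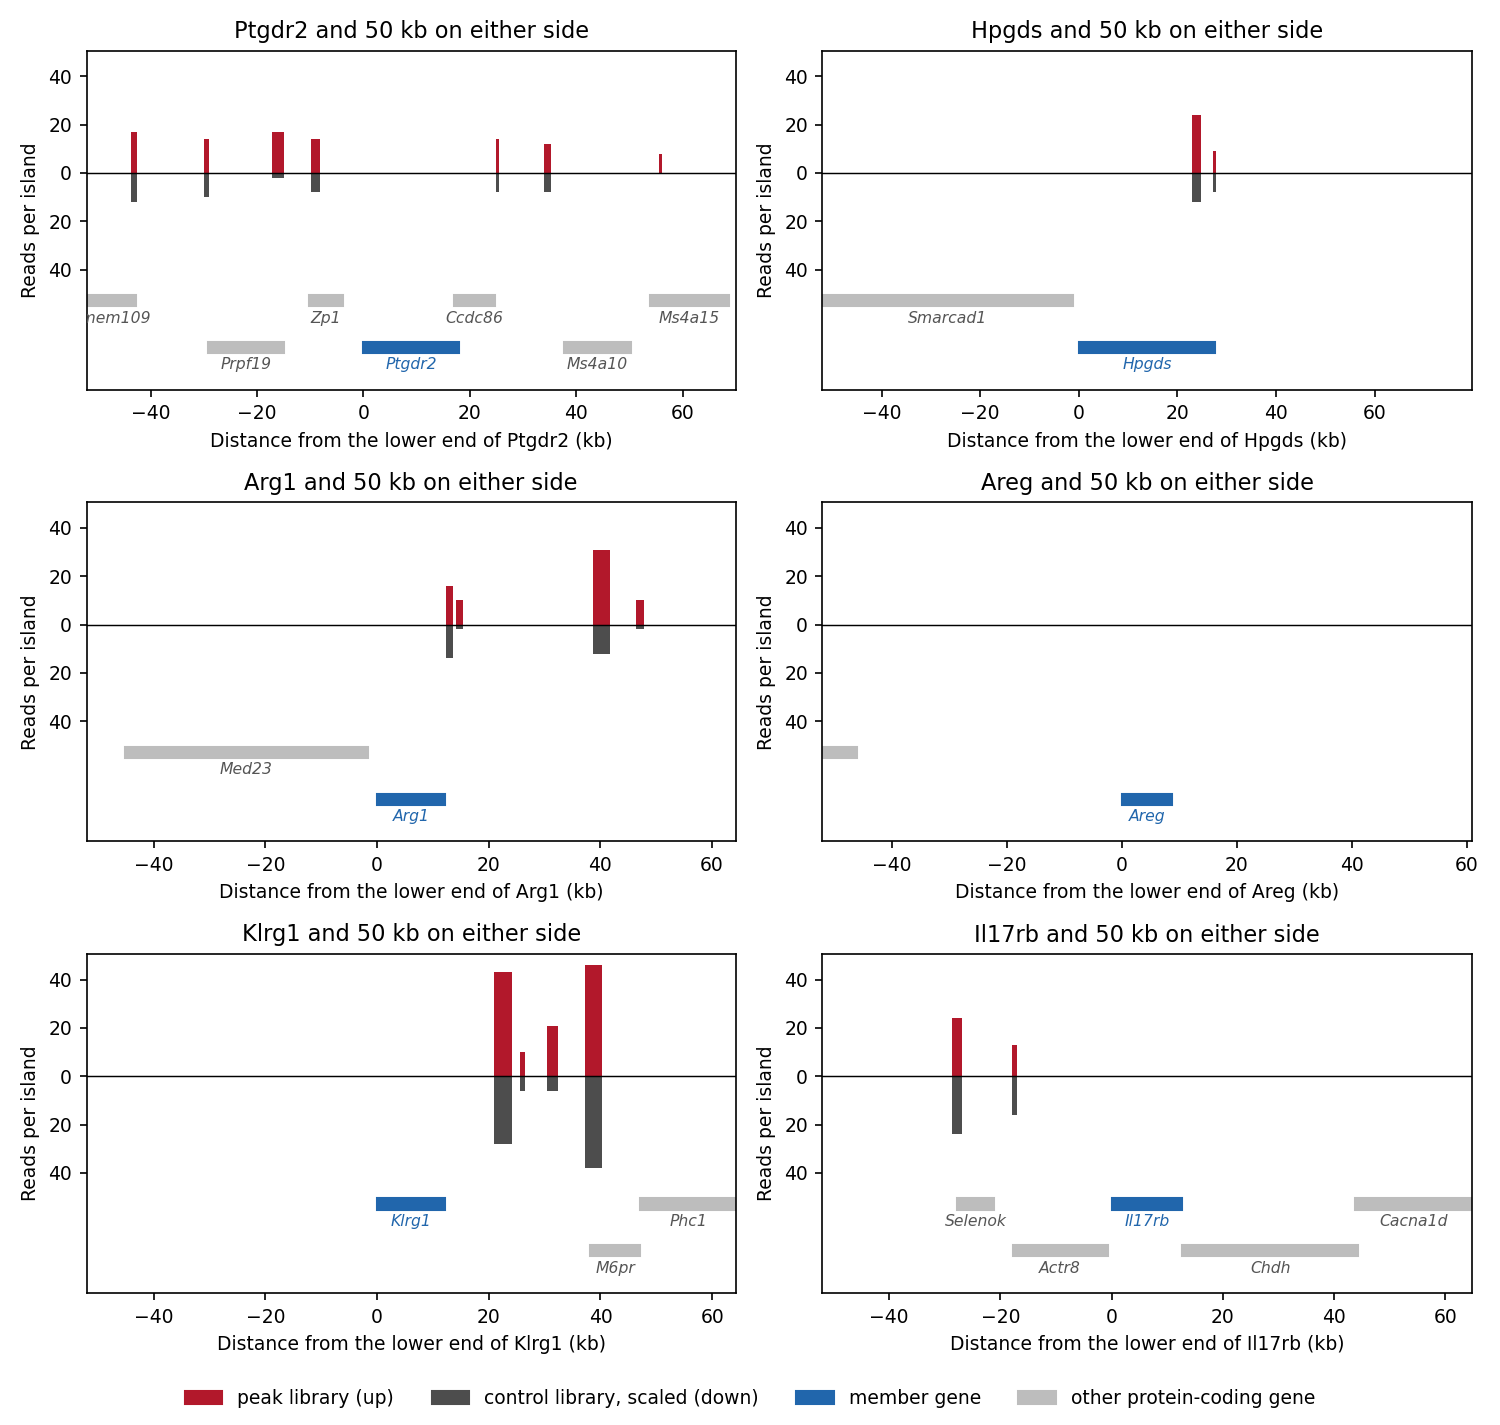
Reads of the islands at the 6 other loci by distance from the lower end of each member gene in kb, with peak-library reads upwards and scaled control-library reads downwards, above the protein-coding genes. Islands touch the member only at Hpgds, lie on the higher side of Arg1 and Klrg1, on the lower side of Il17rb, on both sides of Ptgdr2, and are missing at Areg.

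Across all members, the islands were close in width and reads to those of the whole table. The median island was 1400 bp wide (400 to 3200 bp). Over the 25 islands the median was 16 reads (8 to 46) in the peak library and 4 reads (0 to 19) in the control library, and these 3 medians equal those of all islands in the table. The median fold was 1.75, against 1.84 for all islands. An FDR of up to 0.05 was reached by 14 of the 25 (56%), where 62.5% of all islands reached it. A fold of 2 or more was found for 11 (44%), against 47.0% of all islands. The 11 include the island in Ms4a15 with 0 control reads, which was 1.34-fold higher against the floor of 3 control reads. Both shares lay near the background and are no result about these genes.

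The authors' test takes the control count as known. When both counts were tested by an exact conditional binomial test, two-sided and adjusted over all 19531 islands by Benjamini-Hochberg, 0 of the 25 passed 0.05, against 0.225% of all islands, with a smallest adjusted p of 0.216. At an unadjusted p below 0.05 there were 3, the island with 17 peak and 1 control reads in Prpf19 (exact p = 0.0134), the one with 31 peak and 6 control reads beyond Arg1 (exact p = 0.0334) and the one with 21 peak and 3 control reads near Klrg1 (exact p = 0.0395). After adjustment none of the 25 islands could be told from the scaled control at these counts.

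**Figure D3:**
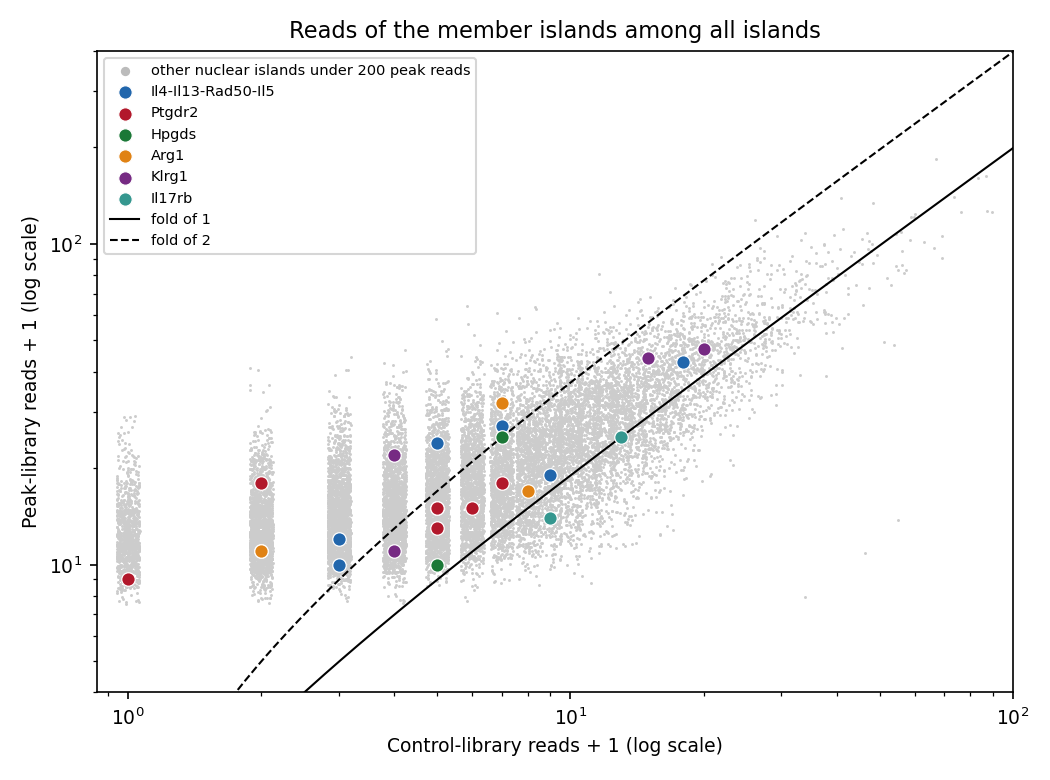
Peak-library reads against control-library reads per island, both plus 1 on log scales, for the member islands in colours by locus and for the other nuclear islands of under 200 peak reads in grey, which are shifted at random by a few percent to keep them apart. Solid and dashed lines mark folds of 1 and 2; the coloured points, of which 2 pairs coincide, lie within the grey cloud, with 11 of 25 on or above the dashed line.

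Pooled over the 25 islands, 482 peak-library reads stood against 147 control-library reads, a fold of 1.64 (1.36 to 1.99). The interval held the 1.62 of nuclear islands of under 200 peak reads. Islands were called on peak-library reads, so the value to set beside it is 1.62 and not 1. Leaving out each locus in turn kept the pooled fold between 1.57, without Ptgdr2, and 1.75, without Il17rb. When the totals of both columns were set equal, the pooled fold was 1.28 (1.06 to 1.55) and the interval of each of the 6 loci included 1. Those totals include the 18 islands of more reads or from mitochondrial DNA. With totals set equal over the other 19513 islands alone, an alternative chosen after the values were seen, the pooled fold was 1.01 (0.840 to 1.23), and again the interval of each of the 6 loci included 1. Each form of equal totals sets the pooled fold of the islands it uses to 1. The 1.01 therefore only restates how close 1.64 lay to 1.62.

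**Figure D4:**
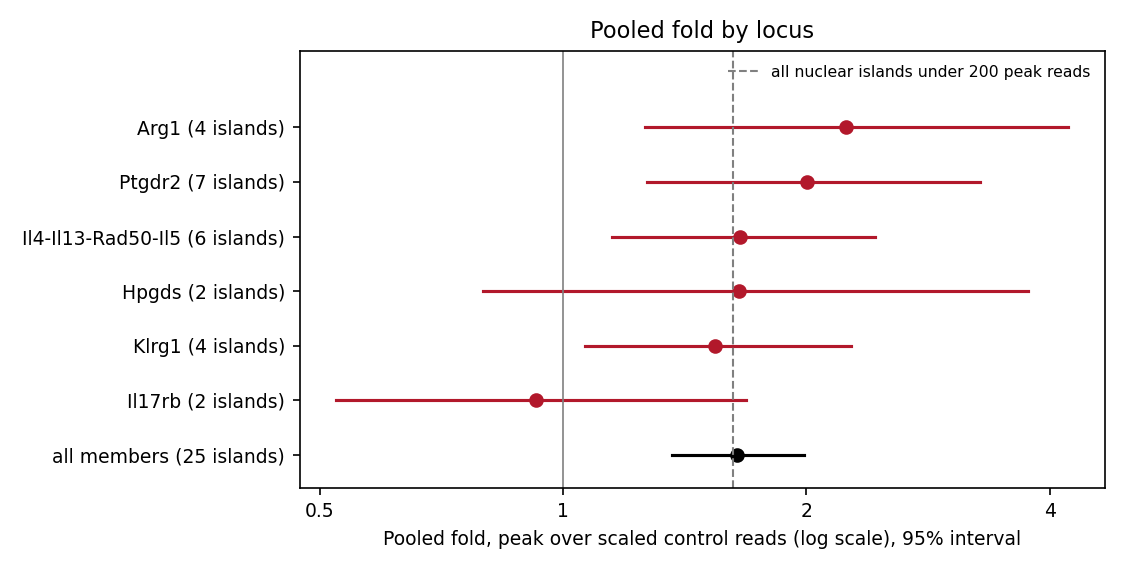
Pooled fold of peak-library over scaled control-library reads for each of the 6 loci with islands and for all 25 islands, as points with exact 95% intervals on a log scale. The grey line marks a fold of 1 and the dashed line the 1.62 of nuclear islands of under 200 peak reads; every interval crosses the dashed line, and those of Hpgds and Il17rb include 1.

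The islands lay beside the member genes more often than in them. Most of each gene window is flank, 50 kb on either side, so this order is largely set by the windows. An island fell in the own window of 8 of the 10 genes, against 68.3% of all 21887 protein-coding gene windows, but in the body of only 2, Rad50 and Hpgds, against 45.7% of gene bodies. The members were shorter than most genes, with a median length of 12251 bp against 17169 bp, and the part of length in this difference was not tested. Of the 25 islands, 13 touched a protein-coding gene (52%, against 74.8% of all islands), and only 3 of them touched a member. The nearest gene was a member for 10 islands and another gene for 15.

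Islands nearest to a member and islands nearest to another gene passed the FDR in 8 of 10 and in 6 of 15 cases (80% and 40%), around the 62.5% of all islands. Their pooled folds were 1.98 (1.43 to 2.79), from 186 peak and 47 control reads, and 1.48 (1.18 to 1.88), from 296 peak and 100 control reads. The intervals overlapped, and the difference was not tested. This split and the next were chosen after the values were seen.

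A RefSeq promoter of the table, which does not list every gene, lay under 7 of the 25 islands (28%), against 34.8% of all islands, and 6 of these 7 promoter islands belonged to genes other than the members. Promoter islands had 146 peak and 54 control reads, a pooled fold of 1.35 (0.985 to 1.89). The 18 islands away from these promoters had 336 peak and 93 control reads, a pooled fold of 1.81 (1.43 to 2.30). Promoters of Rad50, Arg1 and Klrg1 were not analysed. The island across the end of Rad50 and the one 131 bp from Arg1 therefore count among the 18, whether or not they cover a promoter. Among nuclear islands of under 200 peak reads the same split gave 1.42 (1.41 to 1.44) at promoters and 1.81 (1.80 to 1.83) elsewhere.

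The 50 kb limit left out islands at either edge. Just inside it stood the islands over the promoters of Irf1, 43098 bp from Il5, and Kif3a, 42660 bp from Il4, and the one at Tmem109, 42519 bp from Ptgdr2, with folds of 1.24, 2.17 and 1.42. Just outside stood an island 57168 bp from Klrg1 with 15 peak and 4 control reads and a fold of 1.88, and an island 57498 bp from Il5 with 13 peak and 1 control reads and a fold of 6.51.

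Other genes of type 2 immunity and of ILC2 were counted in the same windows. Of 50 such genes, 39 had an island within 50 kb (78%, against 68.3% of all protein-coding genes). Of their 189 islands, 132 had an FDR up to 0.05 (69.8%, against 62.5% of all islands). Together the 189 had 3875 peak and 1094 control reads, a pooled fold of 1.77 (1.66 to 1.90). In gene bodies, 27 of the 50 had an island (54%, against 45.7% of all protein-coding genes). The difference from the 10 members was not tested.

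Gata3, the master regulator of ILC2 and T helper 2 cells that all innate lymphoid cells with interleukin-7 receptor also use, stood at a pooled fold of 1.62 (0.926 to 2.98) over 3 islands. Il1rl1 encodes the interleukin-33 receptor ST2 and borders Il18r1, an interleukin-18 receptor gene. Each had 9 islands in windows that overlap, with pooled folds of 2.66 (1.82 to 3.98) for Il1rl1 and 2.74 (1.87 to 4.13) for Il18r1. Rora, which encodes a nuclear receptor needed for ILC2 and also used by group 3 cells, stood at a pooled fold of 3.27 (2.48 to 4.37) over 15 islands.

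Among the other listed genes the islands with the highest folds mostly had 0 control reads. Near Icos, a costimulatory receptor gene, an island 27879 bp outside the gene had 18 peak and 0 control reads. Against a floor of 3 control reads that was 3.00-fold higher, with an exact lower bound of 2.20. Inside Batf, an AP-1 family factor gene, an island had 12 peak and 0 control reads. Against that floor it was 2.00-fold higher, with an exact lower bound of 1.39. Islands in the windows of Ccl22, a chemokine gene, and Ltc4s, the leukotriene C4 synthase gene, had 10 peak and 0 control reads each. Against that floor they were 1.67-fold higher, with exact lower bounds of 1.12, but they lay nearer to Pllp and Maml1. In the window of Ccr8, a chemokine receptor gene, an island nearest to Rpsa had 19 peak and 1 control reads, a fold of 9.52 (1.51 to 395). Islands picked for their fold overstate it. Bcl11b, a factor needed for mature ILC2, and the receptor genes Il13ra1 and Il13ra2 were among the 11 listed genes without an island.

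Another cytokine gene of chromosome 11, Csf2, was singled out after its values were seen. It encodes GM-CSF and lies 522.2 kb beyond Il5. Its window held 6 islands, all with an FDR up to 0.05, which 62.5% of all islands had. They had 98 peak and 14 control reads, a pooled fold of 3.51 (1.99 to 6.65). A gene picked for its values overstates them.

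Genes of other innate lymphoid groups were counted likewise. Of 16 genes listed for LTi cells and group 3, Rora included, all had an island within 50 kb and 15 had one in the gene body. Of all protein-coding genes, 68.3% had an island in the window and 45.7% in the body. The 129 islands of the group 3 genes, 103 of them with an FDR up to 0.05 (79.8%), had a pooled fold of 2.01 (1.85 to 2.18). Of 12 genes listed for NK cells and group 1, 10 had an island within 50 kb and 3 in the gene body, with a pooled fold of 1.98 (1.66 to 2.38) over 27 islands, 19 of them at that FDR (70.4%). For the type 2 and ILC2 members these counts were 8 and 2 of 10, with 1.64 (1.36 to 1.99) and 14 of 25 islands at that FDR (56%). Of all islands, 62.5% had it. The median number of islands per gene window was 2.5 for the members, 8 for the group 3 genes and 1 for the group 1 genes, beside 2 over all protein-coding genes. Of the 27 islands of the group 1 genes, 10 lay in 1 window, which held 347 of their 605 peak-library reads. The lists differ in gene length and some of their windows overlap, so these counts are a description, and no difference between the lists was tested.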

How the data were processed

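ChIC-seq with an anti-TCF-1 antibody was measured in 2 libraries, 1 per genotype. Per the submitters' processing notes, Bowtie2 2.4.2 was the aligner, SICER 2.0 the island caller and mm10 the build. For the settings of the caller and for duplicate reads, nothing is given in the sources used here. The read counts per island were deposited as whole reads, unscaled, in 2 columns that name no sample. The authors deposited the fold as a ratio, peak reads over scaled control reads, and recomputation gave 1 factor, 1.997, for all 18419 islands with control reads. The p-value and FDR were deposited by the authors, and 1997 islands have an FDR of 1. The table counts from 0, so 1 was added to starts and ends.

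Gene bodies came from the RefSeq table of GRCm38.p6, which gives neither strand nor exons. No genome was used here. Pooled folds sum raw reads, each island once, with Clopper-Pearson 95% intervals. The exact binomial test was tried on simulated reads first. It was added after the data were seen. Python 3.11.15, pandas 2.3.3, NumPy 2.4.6 and SciPy 1.17.1 were used. No sample entered a test between conditions, since each group has 1 library.

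The members and gene lists were chosen with earlier results of these data known. All 10 members are named. Of the 50 other genes, Gata3, Il1rl1 and Rora, the 6 others with the highest best island of 10 or more peak-library reads, and the first 3 without an island are named. Csf2 is named outside this rule, after its values were seen. Neighbouring genes are named where an island lies nearer to them. Alternatives changed the window, the overlap, the read minimum, the FDR, the fold threshold and the scaling.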

Additional observations from a re-analysis of the deposited data

How the results depend on the processing

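The pooled fold of the members stayed above 1 under every alternative run, which the calling of islands on peak-library reads favours. Its size followed the scaling and the choice of islands. It was 1.28 (1.06 to 1.55) when the totals of both columns were set equal, a shift of -0.36 on the log2 scale for every island, and 3.28 with unscaled reads. With totals set equal over nuclear islands of under 200 peak reads, chosen after the data were seen, it was 1.01 (0.840 to 1.23), a shift of -0.70, and 5 islands had a fold of 2 or more. Klrg1 was then at 0.951, below 1, against 1.54 as reported. The pooled fold of the members was 2.00 in gene bodies alone, 2.42 over islands at an FDR of 0.05 or less and 3.86 at 1e-05 or less. The FDR comes from the same reads, so keeping islands by it raises the fold by construction. The number of islands was 3 in gene bodies, 8 with 10 kb on either side, 9 with at least 20 peak-library reads, and 14 and 4 at the FDR limits. Loci with an island numbered 2 in gene bodies and 3 with an FDR up to 1e-05. Islands with a fold of 2 or more numbered 2 in gene bodies, 3 with 10 kb, 5 with at least 20 peak-library reads, 5 at a fold of 3 and 24 unscaled. Islands at an FDR of 0.05 or less numbered 2 in gene bodies, 6 with 10 kb, 22 with 100 kb and 6 with at least 20 peak-library reads, and 4 passed 1e-05. The exact test passed 0, and 3 at an unadjusted p below 0.05. Another 24 alternatives of these 5 results moved a count by no more than 1.5 times or the fold within its interval. No island was left at Ptgdr2, Arg1, Klrg1 or Il17rb in gene bodies, so these have no value there. The type 2 cytokine locus was at 2.88 (0.984 to 11.5) in gene bodies or with 10 kb. With either form of equal totals the intervals of all 6 loci included 1. Either form sets the pooled fold of the islands it uses to 1 by construction. No paired analysis was possible because each group has 1 library. Depth limits single islands, of which the median had 4 control-library reads.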
